A study of Mus musculus with 8 samples.

Results

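5hmC regions at gene ends are places within 2 kb of the start or the end of a protein-coding gene where 5-hydroxymethylcytosine (5hmC) was detected in mouse germinal center B cells. Touching or overlapping peaks of 4 libraries were merged into 341091 autosomal regions. A merged region was taken as a gene-end region when its midpoint lay within 2 kb of either end of a gene span on the mouse build GRCm38. Of all autosomal regions, 19495 (5.72%) met that rule. The others were 124629 regions deeper inside genes and 196967 outside genes, both more than 2 kb from any gene end.

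The libraries came from germinal center B cells of the spleen of C57BL/6 mice, TET2 wild type (WT) or TET2 knockout (KO). Fragments carrying 5hmC had been captured with an antibody before sequencing (hMeDIP-seq) in 2 libraries of each genotype, numbered 2 and 3 in the labels; input libraries had no values analysed here. Neither the deleted part of Tet2, nor a Cre driver, nor the age of the animals is given in the labels. Nor do they say that libraries were made from separate animals, so a p-value here measures the spread between 4 libraries and that spread may be technical.

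TET2 belongs to the TET dioxygenases, which oxidize 5-methylcytosine, mostly at CG dinucleotides (CpG), to 5hmC and further to bases that repair can replace with cytosine. Many mammalian gene starts lie in CpG islands, stretches dense in CpG that usually stay unmethylated and so offer TET enzymes little substrate, whereas gene bodies are usually methylated. Germinal center B cells are B cells that multiply in lymphoid follicles while mutating their antibody genes, and TET2 is often mutated in blood cancers.

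Read totals are not given in the sources used here. The spacing of the authors' fold enrichments places the commonest local background at 11.6 and 10.9 reads in KO replicates 2 and 3 and at 8.66 and 11.7 reads in WT replicates 2 and 3. On autosomes the lists held 259588 peaks (WT replicate 2) to 288705 peaks (WT replicate 3). KO replicate 3 stood apart by its peaks, with a median width of 348 bp beside 406 to 431 bp in the others and a median fold enrichment of 4.39 beside 4.89 to 5.57. Peaks do not read expression, so the labelled cell type was not checked against markers.

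The 250 bases upstream of a gene start are the best defined part of these regions, and the sequence there was available for 12679 gene starts (RefSeq, GRCm38.p6). The authors' deposited table of sites higher in WT than in KO, called WT-higher here, reached into such a stretch at 32 of these 12679 gene starts. The 5 below are shown because they hold such a region and differ in CpG content and in the libraries with a peak. Each runs 5′ to 3′ along the gene, and capitals mark CG. They lie at chr7:45240503-45240752 (Slc6a16, plus strand), chr15:103430428-103430677 (Gtsf1, minus strand), chr19:61228419-61228668 (Csf2ra, minus strand), chr11:83116570-83116819 (Slfn1, plus strand) and chr1:171839447-171839696 (Cd84, plus strand).
Slc6a16: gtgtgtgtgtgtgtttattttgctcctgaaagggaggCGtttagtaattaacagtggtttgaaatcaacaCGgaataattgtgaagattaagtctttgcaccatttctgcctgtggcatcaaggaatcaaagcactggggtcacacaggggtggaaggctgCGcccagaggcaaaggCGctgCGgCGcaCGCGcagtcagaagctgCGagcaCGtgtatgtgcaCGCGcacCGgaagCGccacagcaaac
Gtsf1: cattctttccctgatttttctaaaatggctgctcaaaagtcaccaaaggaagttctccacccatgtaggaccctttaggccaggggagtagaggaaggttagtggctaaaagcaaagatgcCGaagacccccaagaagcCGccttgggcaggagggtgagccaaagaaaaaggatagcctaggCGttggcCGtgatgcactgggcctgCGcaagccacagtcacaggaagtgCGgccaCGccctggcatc
Csf2ra: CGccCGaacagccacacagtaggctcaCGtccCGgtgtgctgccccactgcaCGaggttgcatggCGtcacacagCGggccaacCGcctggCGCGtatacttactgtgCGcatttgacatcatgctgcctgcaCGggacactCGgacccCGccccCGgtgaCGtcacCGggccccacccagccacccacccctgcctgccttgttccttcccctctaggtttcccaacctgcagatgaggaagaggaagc
Slfn1: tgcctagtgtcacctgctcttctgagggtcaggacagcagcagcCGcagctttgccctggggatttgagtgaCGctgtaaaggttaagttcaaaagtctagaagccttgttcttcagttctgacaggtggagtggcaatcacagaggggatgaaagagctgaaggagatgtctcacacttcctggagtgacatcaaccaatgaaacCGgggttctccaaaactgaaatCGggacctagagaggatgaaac
Cd84: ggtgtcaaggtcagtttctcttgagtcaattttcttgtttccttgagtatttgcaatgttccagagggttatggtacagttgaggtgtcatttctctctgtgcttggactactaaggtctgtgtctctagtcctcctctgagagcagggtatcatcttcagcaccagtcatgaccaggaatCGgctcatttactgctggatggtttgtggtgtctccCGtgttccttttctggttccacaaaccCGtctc

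Slc6a16, which encodes an orphan member of a neurotransmitter transporter family, has 14 CG in these 250 bases, and 172 of the bases lay in the WT-higher region. The surrounding region had fold enrichments of 4.90 and 4.77 in KO replicates 2 and 3 and of 7.56 and 5.44 in WT replicates 2 and 3. Both WT values lay above both KO values, as the choice of a WT-higher region favours. Gtsf1, a gene of the piRNA pathway in germ cells, has 7 CG, and Slfn1, a schlafen family gene of lymphocytes, has 4. Both had peaks in WT replicates 2 and 3, with fold enrichments of 3.73 and 3.07 at Gtsf1 and of 3.64 and 3.31 at Slfn1, and no peak in either KO library. Csf2ra, the alpha chain of the receptor for granulocyte-macrophage colony stimulating factor, has 17 CG, and Cd84, a receptor of the SLAM family on lymphocytes, has 3. All 250 bases lay in the WT-higher region at both of these genes. Csf2ra had peaks in every library, of 5.18-fold and 3.45-fold in KO and 6.83-fold and 5.60-fold in WT. Cd84 also had them, of 5.60-fold and 4.89-fold in KO and 7.35-fold and 3.90-fold in WT, so that its groups overlapped. The range of CpG content among these 5 follows from their choice.

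Gene ends of both kinds held a dip in 5hmC, and it was deeper at the 3′ end. Along the 16457 genes whose strand was known, the lowest 100 bp bin around starts lay in the first 200 bp of the gene. There 3.52% and 2.20% of bases lay under peaks in KO replicates 2 and 3, and 3.01% and 3.46% in WT replicates 2 and 3. At 4 to 5 kb on either side the means were 6.44% and 5.07% in KO, against 6.02% and 6.55% in WT, so the dip left 0.435 to 0.546 of the flanking coverage. Around gene ends the lowest bin lay 100 to 200 bp before the end in all 4 libraries, at 2.1% and 1.35% in KO and 2.25% and 2.16% in WT. This was 0.310 to 0.432 of the coverage in its flanks. The highest bin near starts lay 900 to 1000 bp upstream in all 4 libraries, at 7.24% and 5.61% in KO and 6.94% and 7.33% in WT.

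**Figure D1:**
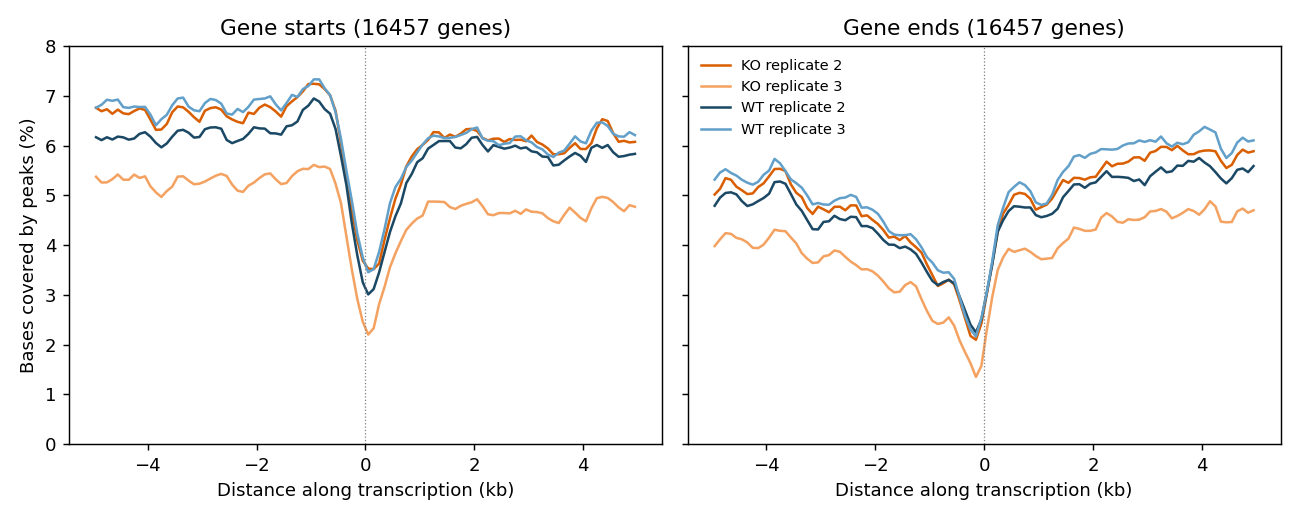
Percent of bases under peaks (vertical axis) in 100 bp bins against the distance in kb along transcription from the start (left) or the end (right) of 16457 genes, 1 line for each of the 4 libraries. Every line dips at both places, to between 2.20% and 3.52% at starts and between 1.35% and 2.25% just before ends, and KO replicate 3 is the lowest throughout.

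Within 2 kb on either side, starts were covered more than ends in each of the 4 libraries. Near starts it was 5.92% and 4.57% of bases in KO replicates 2 and 3 and 5.59% and 5.97% in WT replicates 2 and 3, and near ends 4.15% and 3.20% in KO and 4.03% and 4.32% in WT. The ratio of starts to ends was 1.43 and 1.42 in KO, against 1.39 and 1.38 in WT, with a mean of 1.41. Its exact sign-flip p (two-sided) was 0.13, the smallest that 4 libraries allow. A gene-end region lay near the start of 7743 of the genes with strand (47.0%), near the end of 5970 (36.3%), near both of 3381 (20.5%) and near neither of 6125 (37.2%).

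Of the gene-end regions, 8289 (42.5%) lay near starts alone, 5724 (29.4%) near ends alone and 1165 near both kinds. The other 4317 lay at genes for which the reference gave no strand. The midpoint was inside a gene span for 9506 (48.8%), and 2057 lay within 2 kb of ends of 2 or more genes. The median width was 442 bp, with quartiles of 371 and 555 bp. The most crowded genes had 7 such regions each: Spib and Ciita, which encode a B cell ETS factor and the transactivator of MHC class II genes; Ptpn6, which encodes the phosphatase SHP-1; Hvcn1, a proton channel gene; Tap2, a peptide transporter gene; Dusp10, a MAP kinase phosphatase gene; and Adamts4 and Tmed6. Only 174 of 20665 genes (0.842%) had 5 or more.

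Ciita had 1273 and 1013 bases under peaks near its ends in KO replicates 2 and 3, and 2859 and 1825 in WT replicates 2 and 3. Hvcn1 had 2866 and 1659 in KO and 4889 and 3807 in WT. Ptpn6 had 2169 and 2070 in KO and 3401 and 2551 in WT. In these unscaled bases both WT libraries lay above both KO libraries at these genes. At Spib (3012 and 1769 in KO, 3600 and 2455 in WT) and Tap2 (1862 and 1195 in KO, 1651 and 1262 in WT) the groups overlapped. They also overlapped at Adamts4 (2507 and 2395 in KO, 2289 and 2965 in WT). The same held for Dusp10 (1774 and 929 in KO, 2291 and 1190 in WT) and Tmed6 (1740 and 1420 in KO, 2382 and 1316 in WT). Over all 13810 genes with peaks near an end, scaled to equal totals, both KO libraries lay below both WT libraries at 12.9% and above them at 11.3%. The bases of the genes named above are not scaled, so their order cannot be set against these shares. All autosomal peaks covered 131071 and 106288 kb in KO, against 119658 and 133523 kb in WT, so the order at a gene can change with scaling.

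Gene-end regions were weaker than regions elsewhere. Their median fold enrichment was 4.70 and 4.21 in KO replicates 2 and 3 and 5.07 and 4.57 in WT replicates 2 and 3. Deeper inside genes the medians were 4.94 and 4.32 in KO, against 5.38 and 4.81 in WT, and outside genes 5.21 and 4.47 in KO and 5.69 and 5.04 in WT. Gene ends were thus below both other kinds in each of the 4 libraries (exact sign-flip p = 0.13, two-sided, for each). Of the gene-end regions, 10706 (54.9%) had a peak in all 4 libraries, against 58.5% inside and 61.9% outside genes. The 5 with the highest fold enrichment in their weakest library were strong throughout. They lay near Tnxb, a tenascin gene (16.8 and 12.98 in KO, 14.4 and 17.4 in WT), Stx7, an endosomal syntaxin gene (14.1 and 12.9, 13.6 and 13.5), Fam163b (17.0 and 12.8, 17.3 and 15.9), Susd6 (17.5 and 12.5, 13.1 and 18.3) and Gm52363 (20.6 and 13.3, 15.3 and 17.3). The groups overlapped at each of these.

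The share of gene-end regions with a peak was lower in KO by a small margin that depended on the setting. KO replicates 2 and 3 had 75.1% and 71.5%, and WT replicates 2 and 3 had 75.3% and 81.0%. The KO libraries lay below both WT libraries, KO replicate 2 by less than the gap between the WT libraries. The KO mean was 73.3% ± 2.54 (SD, n = 2) and the WT mean 78.2% ± 4.07 (SD, n = 2), a KO minus WT difference of -4.82 percentage points (exact permutation p = 0.333, two-sided, the smallest that 2 against 2 allow). The same difference was -2.74 points inside genes and -0.94 outside genes, where KO and WT libraries overlapped. Whether the gap at gene ends differs from those gaps was not tested. Leaving out 1 library at a time gave differences between -7.70 (without WT replicate 2) and -1.94 points (without WT replicate 3), and it was -3.02 without KO replicate 3. With equal numbers of peaks per library it was -2.74 points (exact permutation p = 0.667), and with peaks of 5-fold enrichment or more -7.95.

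**Figure D2:**
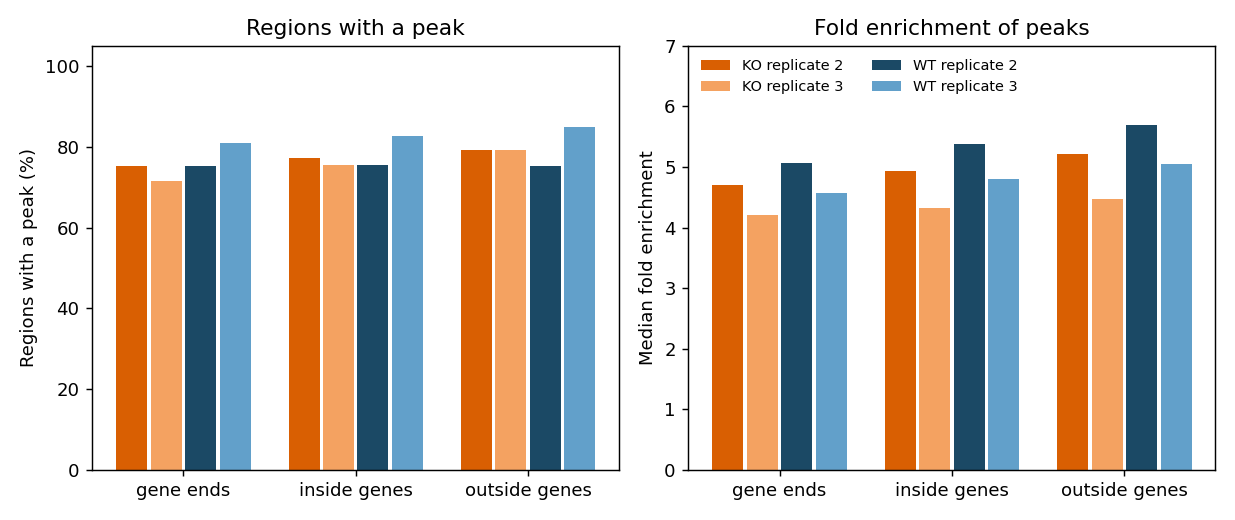
Percent of regions with a peak (left) and median fold enrichment of peaks (right) for regions at gene ends, deeper inside genes and outside genes, with 1 bar per library. In every library the median fold enrichment at gene ends, 4.21 to 5.07, is below that of the other kinds.

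Regions with a peak in 1 genotype alone were few. At 526 gene-end regions (2.70%, background over all autosomal regions 1.92%) both WT libraries had a peak and neither KO library did, and at 214 (1.10%, background 1.29%) the reverse held. Counting peaks of 5-fold enrichment or more gave 433 and 30, and equal numbers of peaks per library gave 352 and 252. Shares over all autosomal regions are not given for these 4 counts. Of all autosomal peaks, 51.9% and 36.2% in KO replicates 2 and 3 reached 5-fold, against 59.2% and 48.3% in WT replicates 2 and 3. The part of this imbalance in the 5-fold counts was not tested. The strongest WT-only regions lay near Hivep3, a zinc finger gene (5.69-fold and 5.28-fold in WT replicates 2 and 3), near Dusp12, a dual-specificity phosphatase gene (4.76-fold and 4.57-fold), and near Gm5954 (4.66-fold and 4.57-fold). The strongest KO-only regions lay near Sorbs3, which encodes the adaptor vinexin (4.46-fold and 4.80-fold in KO replicates 2 and 3), near Ppp2r2a, a regulatory subunit gene of protein phosphatase 2A (4.94-fold and 4.38-fold), and near Rdh8, a retinol dehydrogenase gene (4.46-fold and 4.38-fold).

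In the authors' deposited WT-higher table, 1220 of 24503 autosomal regions lay in gene-end regions. A WT-higher region was present in 1193 gene-end regions (6.12%, 95% Wilson interval 5.79 to 6.46%, background over all autosomal regions 6.71%). It was present in 7.60% of regions deeper inside genes (7.46 to 7.75%) and in 6.20% outside genes (6.09 to 6.31%). Strong peaks carry such regions more often. Weighted to the peak strength of gene-end regions, the shares were 7.21% inside and 5.26% outside genes, so that gene ends lay between the other kinds. Intervals cover counting error only, and the table holds no replicate values. In the authors' deposited table the listed regions at gene ends had scores of 3.18 to 13.2, on a scale that is not stated in the sources used here.

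WT-higher gene-end regions usually had peaks in KO too. In the authors' deposited WT-higher table, 70.9% of the gene-end regions that hold one had a peak in all 4 libraries and 7.04% in the WT libraries alone. A peak was present at 83.4% and 72.7% of them in KO replicates 2 and 3 and at 96.8% and 91.8% in WT replicates 2 and 3. Their selection as WT-higher favours this order. In gene-end regions without a WT-higher region the shares were 74.6% and 71.5% in KO replicates 2 and 3. They were 73.9% and 80.3% in WT replicates 2 and 3. KO replicate 3, with its narrow and weak peaks, was the lowest. Its part in these counts was not tested.

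Among gene-end regions with known strand, WT-higher regions were more frequent near ends than near starts. In the authors' deposited table, 5.32% of regions near starts alone (4.86 to 5.82%) and 6.71% of those near ends alone (6.09 to 7.39%) held one. Of the 4317 regions at genes without a strand, 6.88% (6.16 to 7.67%) did. The highest shares lay in the last 1 kb of genes, with 65 of 694 regions (9.37%, 7.42 to 11.8%) at 500 to 1000 bp before the end and 44 of 538 (8.18%, 6.15 to 10.8%) in the last 500 bp. Beyond the end the share was 6.23% in the first 500 bp and 4.78% at 1000 to 1500 bp. Around starts it lay between 4.25% and 6.71%, highest in the 500 bp upstream. Just inside the 2 kb limit, at 1800 to 2000 bp from any gene end, 103 of 1975 regions (5.22%) held one, and just outside, at 2000 to 2200 bp, 101 of 1904 (5.30%).

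**Figure D3:**
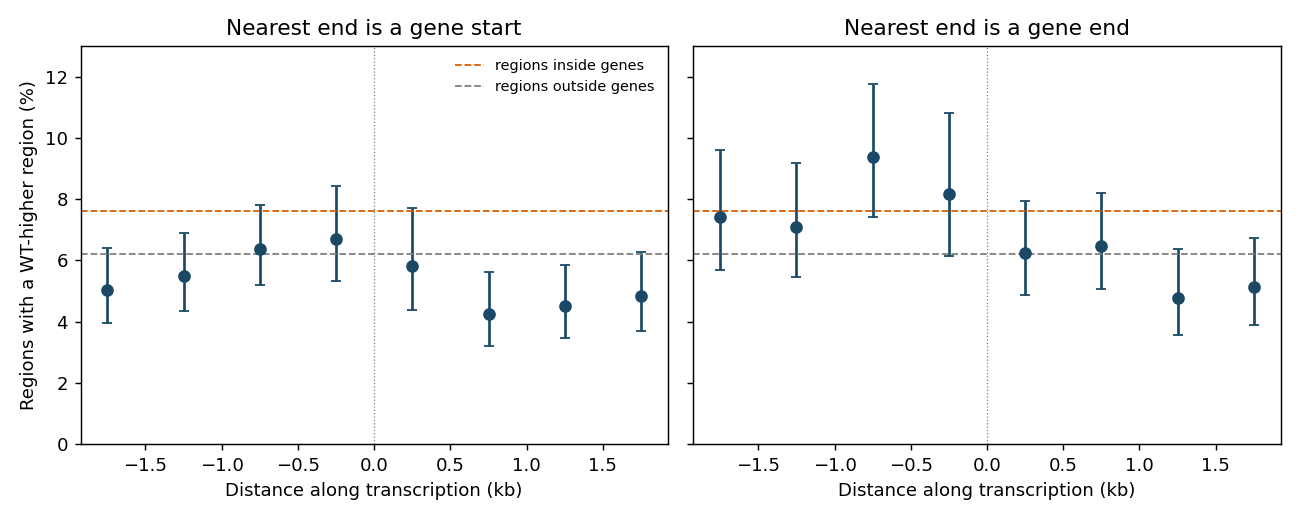
Percent of gene-end regions that hold a WT-higher region of the authors' deposited table (vertical axis, bars are 95% Wilson intervals) against the distance in kb along transcription of the midpoint from the nearest gene start (left) or end (right), in 500 bp bins. Dashed lines give the shares inside and outside genes, and the highest point, 9.37%, lies 500 to 1000 bp before gene ends.

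This comparison was chosen after the values were seen. In the last 1 kb together, 109 of 1232 regions (8.85%, 7.39 to 10.6%) held a WT-higher region of the authors' deposited table, against 121 of 1906 (6.35%, 5.34 to 7.53%) in the first 1 kb beyond. The intervals overlap slightly, and the difference of 2.50 points kept its sign with regions of score at least 5 (1.74) and with regions at 1 gene alone (2.38). The share of regions deeper inside genes, 7.60%, lies within the interval of the last 1 kb. The peak lists come from the 4 libraries whose peaks define the regions, so they are no independent check. In the last 1 kb a peak was present at 68.8% and 63.7% of regions in KO replicates 2 and 3 and at 73.3% and 77.7% in WT replicates 2 and 3. In the first 1 kb beyond, these shares were 74.7% and 73.1% in KO, against 75.4% and 80.2% in WT. Both KO libraries were below both WT libraries in either stretch, and the nearest pair lay farther apart inside the gene.

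Of the 10 gene-end regions with the highest WT-higher scores in the authors' deposited table, 6 had no KO peak. The first, scored 13.2 in the authors' deposited table, lay in Tnrc6c, a gene of microRNA silencing, 1.35 kb before its end (chr11:117761332-117762854). Its fold enrichments were 3.07 and 3.62 in KO, against 6.83 and 6.62 in WT. Yeats4, which encodes a reader of acetylated histones, had a score of 11.6 in the authors' deposited table in a region 126 bp before its end. Fold enrichments there were 7.97 and 6.99 in KO, against 10.04 and 6.62 in WT, so that the groups overlapped. Antxr2, a gene for an anthrax toxin receptor, had a score of 11.3 in the authors' deposited table and peaks in KO replicate 2 (4.46-fold) and in WT replicates 2 and 3 (5.90-fold and 4.89-fold). Slc6a16 followed.

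The regions of Ttpal, a gene of the alpha-tocopherol transfer family, Gtsf1, Sun1, an inner nuclear membrane gene, and Crtc2, a coactivator gene of CREB, had peaks in both WT libraries and no KO library. Sun1 had 3.83-fold and 3.78-fold enrichment in WT replicates 2 and 3, and Crtc2 had 4.56-fold and 3.06-fold. Those of Zzef1 (3.11-fold) and Aldh2, the mitochondrial aldehyde dehydrogenase gene (3.52-fold), had a peak in WT replicate 2 alone.

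KO-higher regions, the counterpart in the authors' second deposited table, were rare everywhere. Of 41 autosomal ones in that deposited table, 2 (4.88%) lay among the gene-end regions, which are 5.72% of all autosomal regions. Counted by region, 2 of the 19495 gene-end regions held one, beside 21 of all 341091 autosomal regions (0.00616%). Both lay at the start of Vav1, a signalling gene downstream of antigen receptors. The region centred 625 bp inside the gene (chr17:57279189-57280260) had 991 and 988 bases under peaks in KO replicates 2 and 3, 867 in WT replicate 2 and none in WT replicate 3. That centred 1.11 kb upstream (chr17:57277041-57278945) had 1758 and 1828 bases in KO, against 1367 and 1195 in WT. In covered bases both KO libraries lay above both WT libraries in each region, but the fold enrichments did not separate that way. They were 6.19 and 4.24 in KO and 4.90 in WT replicate 2 in the inner region, and 6.71 and 4.65 in KO, against 7.37 and 5.36 in WT, in the upstream one.

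Covered bases per region, scaled to equal totals and compared with limma as log2(bases + 200), gave 29 gene-end regions lower in KO and 24 higher at a Benjamini-Hochberg adjusted p under 0.05, of 13574 tested. These are 0.214% and 0.177%, against backgrounds of 0.197% and 0.122% over all 249179 autosomal regions tested. The counts rest on a robust variance fit, which on simulated 4-fold changes in 200 regions recovered 76 and made 160 false calls. Without that option limma called 0 in either direction, with 347 gene-end regions at an unadjusted p under 0.05, and in the simulation it recovered 0. The calls are therefore given as a count only.

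The 3 regions of smallest p in each direction are given as a description, and their covered bases separate by that choice. Slc44a3, a gene of the choline transporter-like family (chr3:121460660-121461781), had 472 and 274 bases in KO, against 1122 and 1009 in WT (limma log2 change -1.10). Usf3 had 479 and 483 bases in KO, against 1086 and 1029 in WT (limma log2 change -0.81), and 4930404N11Rik 449 and 329 in KO and 831 and 804 in WT (-0.73). On the other side Gimap9, a GTPase gene of lymphocytes (chr6:48680240-48681213), had 823 and 815 bases in KO, against 382 and 342 in WT (limma log2 change 0.93). Thegl had 845 and 572 in KO and 361 and 341 in WT (0.77), and Nobox, an oocyte homeobox gene, 771 and 656 in KO and 375 and 379 in WT (0.73). All 6 had peaks in every library, with fold enrichments between 3.25 and 6.42. Fold enrichments overlapped between KO and WT at Usf3 (5.29 and 5.14 in KO, 6.11 and 4.97 in WT), Gimap9 (4.12 and 3.25 in KO, 3.52 and 3.78 in WT) and Thegl (3.43 and 3.62 in KO, 4.85 and 3.39 in WT). None of them passed without the robust option.

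Coverage at the start was lowest at both extremes of CpG density, read from the RefSeq promoter sequences of 300 bases around the start. The CpG ratio is the observed number of CG over that expected from the base content. The 12679 starts were split into 5 groups of equal size by that ratio, after the data were seen. Within 250 bp of the start, the CpG-poorest group had 2.28% and 1.54% of bases under peaks in KO and 2.02% and 2.28% in WT. The next group had 4.001% and 2.79% in KO and 3.68% and 4.11% in WT, the highest values in every library. Coverage then fell through the third and the fourth group to the CpG-richest, with 2.11% and 1.23% in KO and 1.76% and 2.17% in WT. At 500 to 1000 bp upstream the groups ranged from 5.71% to 7.67% in KO replicate 2 and from 5.37% to 7.37% in WT replicate 2. The share of their regions with a WT-higher region of the authors' deposited table lay between 4.68% and 5.48%, with overlapping intervals.

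**Figure D4:**
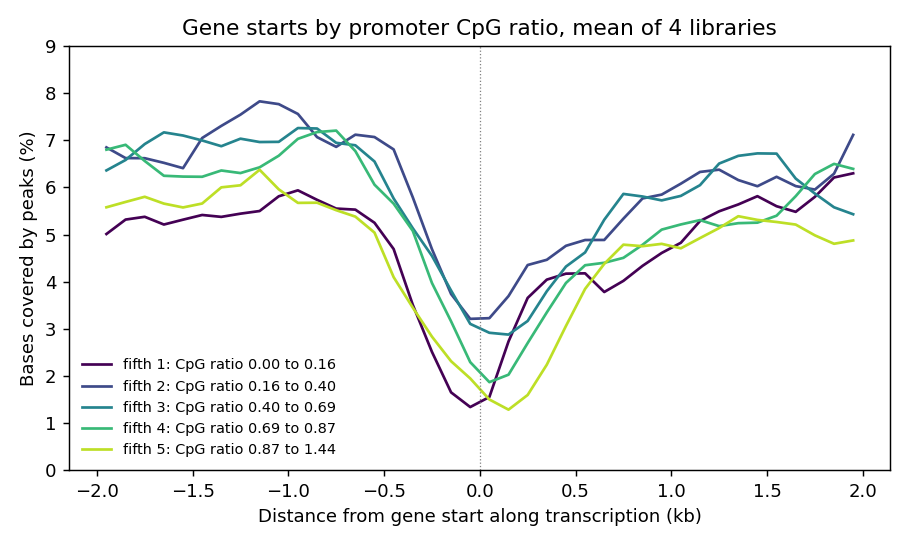
Percent of bases under peaks, mean of the 4 libraries (vertical axis), in 100 bp bins against the distance in kb from the gene start, for 5 groups of starts of rising CpG ratio. All groups dip at the start, and the CpG-poorest and CpG-richest groups dip the deepest.

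Split at a ratio of 0.6, the 6068 CpG-rich starts had less coverage within 2 kb than the 6611 others in all 4 libraries. The ratio of rich to poor was 0.955 and 0.904 in KO, against 0.965 and 0.930 in WT (mean 0.938, exact sign-flip p = 0.13, two-sided, the smallest possible). With the split at 0.4 the mean ratio was 0.971 (exact sign-flip p = 0.25), and not all 4 libraries had a ratio below 1. Within 250 bp of the start, a window chosen after the data were seen, the KO ratios were 0.803 and 0.709 and the WT ratios 0.721 and 0.773. A peak in all 4 libraries overlapped the 300 bases of 408 promoters (3.22%), and 11770 (92.8%) had none in any library. Those 408 had a median CpG ratio of 0.534, against 0.570 over all promoters.

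Short motifs were searched on both strands of the 300 bases, and a match is a description only. The GC box GGGCGG was in 49.3% of the 408 promoters with peaks in all 4 libraries and in 45.6% of all promoters. CCAAT was in 35.3% and 40.7%, TATAAA in 10.3% and 15.2%, and CACGTG in 5.15% and 8.01%. The letters GAGGAAGT, known to be bound by PU.1 and Spi-B, were in 3.19% and 3.41%.

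Gene lists of the B cell program were described at their ends beside all genes, of which 62.9% had a gene-end region and 6.00% one with a WT-higher region (1240 genes, background 6%). All 30 germinal center identity genes had a gene-end region. Peaks covered 23.8% and 16.6% of the bases within 2 kb of their ends in KO and 24.2% and 21.6% in WT, against 5.08% and 3.93% in KO and 4.86% and 5.20% in WT over all genes. Of their 102 gene-end regions, 19 (18.6%, 12.3 to 27.3%) held a WT-higher region of the authors' deposited table, in 16 genes, against 6.20% over all autosomal regions at equal peak strength. These lists were chosen with earlier results of these data known, so their shares are a description.

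Among the transcription factors of that list, Bach2, a repressor that restrains plasma cell fate, had a WT-higher region 402 bp before its end (chr4:32585386-32586029), of score 8.34 in the authors' deposited table. That region had 469 and 335 bases under peaks in KO, against 595 and 590 in WT. Foxo1, a forkhead factor of the dark zone, had one of score 6.65 in the authors' deposited table, 1.964 kb upstream (chr3:52265575-52267171). The region there had 928 bases in KO replicate 2, none in KO replicate 3, and 1597 and 859 in WT, so that the groups overlapped. Bcl6, the master repressor of the germinal center, had 3 gene-end regions, Pax5, the B lineage factor, had 6 and Cd22, an inhibitory receptor gene, had 6, with no WT-higher region at any of these genes. Bcl6 ends had 1804 and 912 bases in KO, against 1897 and 1854 in WT.

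Cxcr4, the chemokine receptor of the dark zone, had 2986 and 2191 bases in KO, against 2671 and 2532 in WT so that KO and WT overlapped, with WT-higher regions in 2 of 4 gene-end regions. Over the 30 genes, scaled coverage near the ends was lower in KO on average for 20, against 6999 of 13810 over all genes. Both KO libraries lay below both WT libraries for 6 of the 30 and above them for 4. The backgrounds were 1779 (12.9%) and 1564 (11.3%) of the 13810 genes.

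In the B cell receptor list, 6 of 72 gene-end regions (8.33%, 3.88 to 17.0%; 4.51% over all regions at equal strength) held a WT-higher region of the authors' deposited table and 2 the KO-higher regions of Vav1. Ptpn6, the inhibitory phosphatase, had 1 of score 6.58 in the authors' deposited table, 1.12 kb before its end. Fold enrichments there were 8.92 and 6.32 in KO, against 10.3 and 7.02 in WT, so that the groups overlapped. Syk, the kinase that couples the receptor to its pathway, had 1 of score 6.24 in the authors' deposited table, 224 bp before its end (chr13:52648376-52648761). Peaks there were in WT replicates 2 and 3 alone, with 384 and 351 bases. Pik3cd, the p110 delta kinase gene, had 710 and 608 bases in KO, against 711 and 780 in WT at its start.

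Of CD40 and NF-kB genes, 7 of 47 gene-end regions (14.9%, 7.41 to 27.7%; 5.24% over all regions at equal strength) held a WT-higher region of the authors' deposited table. One lay 590 bp beyond the end of Nfkbia, which encodes the inhibitor of NF-kB (chr12:55488597-55489040). It had 351 bases under peaks in KO replicate 2, none in KO replicate 3, and 444 and 309 in WT, so that the groups overlapped. Lymphoma genes had 8 of 47 (17.0%, 8.89 to 30.1%; 4.29% at equal strength), of which Hvcn1 held 3; this list shares genes with the identity and antigen presentation lists. The Hvcn1 region of score 8.91 in the authors' deposited table had overlapping fold enrichments, of 6.45 and 5.06 in KO and 9.63 and 5.99 in WT. Its midpoint lay 81 bp beyond the Hvcn1 span, and that of the Hvcn1 region of score 7.57 lay 1.78 kb beyond it. Both midpoints were inside the span of another gene. Btg2, an antiproliferative gene, had 641 and 409 bases in KO, against 1016 and 983 in WT in a region 178 bp beyond its end (chr1:134074164-134075209). Btg1, its paralog, went the other way over all its ends, with 1279 and 1577 bases in KO, against 902 and 853 in WT.

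Antigen presentation genes had lower scaled coverage at their ends in KO at 19 of the 21 genes with peaks there, against 6999 of 13810 over all genes. Both KO libraries lay below both WT libraries at 4 of the 21 and above them at none, beside backgrounds of 12.9% and 11.3% over all genes. Many of these genes are neighbours in the MHC on chromosome 17 and can share regions, so they are not independent. The list had 15.0% and 9.38% of the bases near its ends covered in KO and 18.4% and 14.2% in WT. Of its 64 gene-end regions, 8 (12.5%, 6.47 to 22.8%; 4.56% over all regions at equal strength) held a WT-higher region of the authors' deposited table. At Ctss, the protease that trims the invariant chain, that region (chr3:95525663-95526073) had 375 and 351 bases in WT and no peak in KO.

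Immediate early genes had 5 of 26 (19.2%, 8.51 to 37.9%; 6.39% over all regions at equal strength) with a WT-higher region of the authors' deposited table, among them Dusp5, a phosphatase gene of ERK, with no peak in KO replicate 2, 277 bases in KO replicate 3, and 590 and 445 in WT. Genes of the 5mC and 5hmC enzymes and their partners had 3 of 28 (10.7%, 3.71 to 27.2%; 5.06% over all regions at equal strength), in Mbd3, Uhrf1 and Gadd45a. Scaled coverage was lower in KO at 8 of the 16 genes with peaks and higher at the other 8. Gadd45a, a stress gene linked to demethylation, had 825 and 616 bases at its ends in KO and 1849 and 1706 in WT. Uhrf1, the cofactor of maintenance methylation, had none in KO and 727 and 482 in WT. Gadd45b, a related stress gene, had 1736 and 458 in KO and 738 and 784 in WT, where the groups overlapped. Cell cycle genes had 3 of 34 (8.82%; 4.14% at equal strength) and plasma cell genes 2 of 32 (6.25%; 5.69% at equal strength), both with intervals that hold the share at equal strength.

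Ribosomal protein genes were at the low end of the scale. A gene-end region was present at 18 of 35, peaks covered 1.63% and 1.43% of bases near their ends in KO and 2.01% and 2.82% in WT, and 0 of 20 regions (Wilson upper bound 16.1%; 4.32% at equal strength) held a WT-higher region of the authors' deposited table. Of markers of other cells, T cell genes had 1 of 28 (3.57%), myeloid genes 3 of 37 (8.11%), erythroid genes 1 of 23 (4.35%) and neuronal genes 1 of 26 (3.85%) in that deposited table, beside 6.36%, 5.92%, 7.69% and 7.08% at equal strength. Coverage near their ends ranged from 4.47% for neuronal genes in KO replicate 3 to 10.02% for myeloid genes in WT replicate 3.

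**Figure D5:**
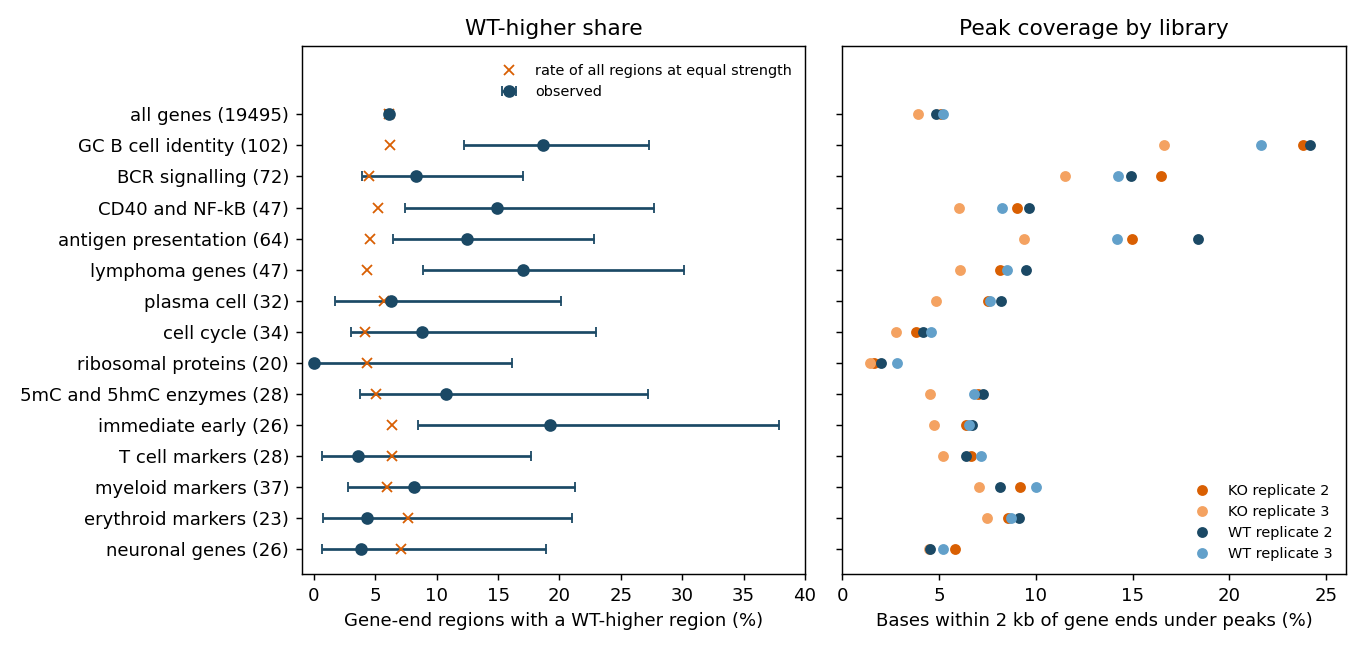
Left, percent of gene-end regions of each gene list with a WT-higher region of the authors' deposited table (points with 95% Wilson intervals, number of regions in brackets) beside the share of all regions at equal peak strength (crosses). Right, percent of bases within 2 kb of gene ends under peaks in each of the 4 libraries, highest for germinal center identity genes (16.6% to 24.2%) and lowest for ribosomal protein genes (1.43% to 2.82%).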

How the data were processed

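5hmC was measured by hMeDIP-seq in 2 WT and 2 KO libraries. The submitters' processing notes name BWA 0.7.12-r1039, MACS2 2.1.0.20151222 and GRCm38.p3 and state no parameters. The authors deposited 1 peak list per library, so peaks were called per library, with a fold enrichment (a ratio over local background), a −log10 p-value, a −log10 q-value and a score for each peak. The authors also deposited WT-higher and KO-higher regions with a score; its scale, the caller and the libraries compared are not stated. These are the authors' values.

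Regions were merged over all lists and a peak counted from 1 bp of overlap. Gene spans, strand and promoter sequences came from RefSeq tables of GRCm38.p6, whose primary chromosomes match GRCm38.p3. The tables hold no exons, so exons and introns were not told apart. Of 20665 autosomal genes, 16457 (79.6%) had a strand, taken from the promoter table with no limit on distance. A promoter sequence was used for 12679 genes, where the promoter's start lay within 100 bp of the start of the gene span. Promoter orientation was checked by TATAAA, found 15 to 40 bases before the start in 217 plus-strand and 209 minus-strand promoters as given and 33 and 40 reversed. Background reads were taken as 1 over the step of the fold enrichments, minus 1; 65.3 to 73.6% of peaks lay on that ladder, within 0.01 of a whole step.

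Covered bases, brought to the same total in each library, were compared as log2(bases + 200) with limma 3.58.1 (trend, robust) in R 4.3.3, for regions with a mean of at least 200 bases. This scale understates changes of low values. In simulated KO against WT data for 249179 regions with 200 changed, the robust fit recovered 2.5%, 38% and 41.5% of changes of 2-fold, 4-fold and 8-fold, with 74, 160 and 168 false calls, so its adjusted p did not hold the error rate. Without the robust option it recovered 0 of each, with 0 false calls. Peak strength was the mean rank of a region's strongest peak within each library, in 20 bins.

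The deviations of coverage in same-numbered libraries had a correlation of 0.035, and the labels do not say whether these libraries were handled together. Members and gene lists were chosen with earlier results of these data known. Genes named are the 10 gene-end regions of highest WT-higher score, all with a KO-higher region, up to 12 gene ends from the lists by score with at most 3 a list, the 5 of highest lowest fold, the genes with most regions (8 tied at 7), the 3 strongest of 1 genotype alone, and the 3 of smallest limma p each way. Csf2ra, Slfn1, Cd84, Bcl6, Pax5, Cd22, Cxcr4, Btg1, Gadd45a, Gadd45b, Uhrf1 and Mbd3 were named after their values were seen. A gene that the rule also names is not reported here.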

Additional observations from a re-analysis of the deposited data

How the results depend on the processing

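Leaving out 1 library at a time, the number of gene-end regions with a peak in WT alone lay between 942 and 1872 and in KO alone between 570 and 1136, with WT above KO each time; the counts rise because 1 library less must lack or must hold a peak. Within 1 kb of gene ends the counts were 247 and 109, within 5 kb 1136 and 522, and KO-only regions fell to 30 at 5-fold enrichment or more. Shares over all autosomal regions are not given for these alternatives. The share with a WT-higher region was 6.47% within 1 kb of gene ends, 2.37% at a score of at least 5 and 7.90% for regions with a peak in all 4 libraries, and its difference from regions inside genes was -1.09, -0.95 and -2.13 points there. Near starts minus near ends lay between -1.57 and -0.60 points, never changing sign in the alternatives run. The ratio of starts to ends lay between 1.25 and 1.42, and that of CpG-rich to CpG-poor starts between 0.7503 and 0.971.

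The limma counts, lower and higher in KO, are given with their shares and the background over all autosomal regions tested. With a pseudocount of 50 bases they were 124 and 78 (0.914% and 0.575%, background 0.612% and 0.446%). With 500 they were 22 and 14 (0.162% and 0.103%, background 0.128% and 0.0666%). With no filter they were 143 and 86 (0.734% and 0.441%, background 0.505% and 0.371%). With no scaling they were 80 and 19 (0.587% and 0.139%, background 0.424% and 0.0917%). They were 0 and 0 with a filter at 400 bases (background 0.0208% and 0.00772%, 287 gene-end regions at an unadjusted p under 0.05). They were also 0 and 0 with equal numbers of peaks (background 0.000417% and 0%, 411 gene-end regions at an unadjusted p under 0.05). With the replicate number as a block they were 117 and 81 (0.862% and 0.597%, background 0.549% and 0.399%). The labels give that number alone and do not say that same-numbered libraries were paired. The counts were 0 and 0 without the robust option (background 0% and 0%), an alternative chosen after seeing the data. Within 1 kb 20 were lower and 6 higher, and within 5 kb 91 lower and 46 higher, with the main fit. Shares and backgrounds are not given for these distances, and more regions lie within 5 kb than within 1 kb. Leaving out 1 library left a lone library that was assumed to vary like the other group, so counts from those fits are not given. The cause of these changes was not tested. The log2 changes of the 6 named regions kept their sign in the alternatives run. Depth limits the sites that can be called, and the input counts behind each peak are not given in the sources used here.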
